A study of Mus musculus with 23 samples.

Results

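Neuronal and synaptic gene loci were followed in the open chromatin of sorted striatal microglia. The set holds 34 genes of neurons, among them the striatal transmitter receptors Drd1, Drd2 and Adora2a, presynaptic genes such as Syn1 and Syp, postsynaptic genes such as Dlg4 and Camk2a, and nuclear factors such as Rbfox3 and Foxp1. A peak belonged to a member when its summit lay in the gene body or within 20 kb of it, and to the nearest member where several qualified. By this rule 2161 of the 1054137 deposited peaks, or 0.205%, lay at the 34 loci, and 98 of the 49124 regions of the whole series. A region is a window of 250 bases to either side of a summit that held a peak in 3 libraries or more. The members' peaks and regions were chosen by the authors' peak calls and summit positions, so their number is a description and was not tested.

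The libraries came from ATAC-seq, in which a transposase cuts accessible DNA, on microglia of male mice aged 8 to 10 weeks. Cells were sorted as live, CD11b+, CD45-low and P2RY12+. Control offspring (CON) and offspring of dams with maternal immune activation (MIA) received saline (SAL) or lipopolysaccharide (LPS, 4500 endotoxin units per gram of body weight, into the peritoneum), and cells were collected 18 hours later. Of the 23 libraries 5 were CON_SAL, 6 MIA_SAL, 7 CON_LPS and 5 MIA_LPS. The labels give neither the agent of the maternal activation nor the strain. All 23 identity codes in the labels differ, but their middle number takes only 14 values. Of these, 8 are shared by several libraries (17 in all): 4 within a group, 5 across saline and LPS, and 0 across CON and MIA. The labels do not say what this number marks, nor whether libraries stem from separate animals. The tests rest on the spread among libraries, which may be technical. The series title speaks of microglial reactivity after prenatal immune stress, and the comparisons below ask whether chromatin at neuronal loci differed with LPS and with prenatal history.

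Neuronal genes serve here as the program of another cell type. In neurons, transmitter receptors and scaffold proteins such as PSD-95, the product of Dlg4, build the synapse, and splicing factors such as Rbfox3 (the antigen NeuN) mark mature cells. Medium spiny neurons of the striatum carry either the dopamine receptor Drd1 with the peptide gene Tac1, or Drd2 with Adora2a and Penk. Microglia are macrophages of the brain and derive from another lineage, in which lineage-foreign genes are commonly kept in closed chromatin. Promoters rich in CpG dinucleotides are commonly open across cell types, in contrast to those of tissue-restricted genes that are poor in CpG.

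The 300 bases around the RefSeq start (250 before and 50 after, GRCm38.p6) were on hand for 36 starts of 24 members. The first 3 sequences below are starts with a region within 1 kb, and the next 4 are starts rich in CpG with none. CpG dinucleotides are in capitals. Rgs9 lies at chr11:109298132-109298431 on the minus strand, Drd1 at chr13:54055609-54055908 (minus) and Foxp1, here a start inside its body, at chr6:99028249-99028548 (minus). Map2 lies at chr1:66175079-66175378 (plus), Syn1 at chrX:20920869-20921168 (minus), Grin1 at chr2:25319138-25319437 (minus) and Drd2 at chr9:49340153-49340452 (plus).
Rgs9: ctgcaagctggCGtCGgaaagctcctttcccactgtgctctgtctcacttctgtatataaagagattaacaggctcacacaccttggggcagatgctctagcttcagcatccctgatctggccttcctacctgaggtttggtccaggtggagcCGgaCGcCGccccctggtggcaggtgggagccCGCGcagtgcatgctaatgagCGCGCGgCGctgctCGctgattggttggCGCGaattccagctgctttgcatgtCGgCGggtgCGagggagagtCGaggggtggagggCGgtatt
Drd1: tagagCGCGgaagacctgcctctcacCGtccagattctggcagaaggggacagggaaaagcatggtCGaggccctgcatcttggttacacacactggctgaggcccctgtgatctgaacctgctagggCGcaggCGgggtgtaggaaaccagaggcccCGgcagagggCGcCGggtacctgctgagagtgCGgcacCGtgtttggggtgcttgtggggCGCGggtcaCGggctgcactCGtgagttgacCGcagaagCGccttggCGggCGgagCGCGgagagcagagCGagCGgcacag
Foxp1: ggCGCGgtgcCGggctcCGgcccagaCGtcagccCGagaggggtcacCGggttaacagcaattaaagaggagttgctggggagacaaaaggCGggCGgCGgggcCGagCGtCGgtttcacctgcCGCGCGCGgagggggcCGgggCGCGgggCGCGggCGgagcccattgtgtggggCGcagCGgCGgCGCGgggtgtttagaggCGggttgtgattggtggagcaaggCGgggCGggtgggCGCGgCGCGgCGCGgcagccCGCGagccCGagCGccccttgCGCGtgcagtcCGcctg
Map2: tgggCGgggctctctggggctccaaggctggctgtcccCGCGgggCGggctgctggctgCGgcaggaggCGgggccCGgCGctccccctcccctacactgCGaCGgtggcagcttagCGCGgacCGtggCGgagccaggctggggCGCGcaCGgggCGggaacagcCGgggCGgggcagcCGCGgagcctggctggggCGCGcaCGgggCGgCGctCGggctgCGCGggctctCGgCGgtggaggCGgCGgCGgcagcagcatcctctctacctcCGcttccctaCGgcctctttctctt
Syn1: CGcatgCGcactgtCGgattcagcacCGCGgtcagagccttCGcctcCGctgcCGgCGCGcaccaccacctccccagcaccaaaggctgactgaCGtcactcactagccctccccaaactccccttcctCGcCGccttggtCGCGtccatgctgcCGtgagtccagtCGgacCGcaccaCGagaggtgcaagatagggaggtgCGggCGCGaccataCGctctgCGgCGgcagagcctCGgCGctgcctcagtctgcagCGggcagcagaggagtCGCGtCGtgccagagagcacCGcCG
Grin1: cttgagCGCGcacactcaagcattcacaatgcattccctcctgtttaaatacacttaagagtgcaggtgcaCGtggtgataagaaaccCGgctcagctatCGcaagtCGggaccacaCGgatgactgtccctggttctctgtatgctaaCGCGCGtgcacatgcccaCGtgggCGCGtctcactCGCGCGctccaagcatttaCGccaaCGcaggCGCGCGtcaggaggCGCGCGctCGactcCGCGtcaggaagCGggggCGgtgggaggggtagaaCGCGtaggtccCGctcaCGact
Drd2: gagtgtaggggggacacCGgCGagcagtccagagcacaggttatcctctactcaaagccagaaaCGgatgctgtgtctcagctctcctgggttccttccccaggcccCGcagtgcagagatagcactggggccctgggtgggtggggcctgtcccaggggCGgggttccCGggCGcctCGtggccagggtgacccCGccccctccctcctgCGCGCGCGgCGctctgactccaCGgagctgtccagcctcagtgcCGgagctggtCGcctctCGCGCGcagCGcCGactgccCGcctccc

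The Rgs9 start holds 19 CpG and was open in all 23 libraries. Rgs9 encodes a regulator of G protein signalling that is abundant in striatal neurons. The Foxp1 start holds 44 CpG, the most of the members' 36, and had a peak in 18 libraries. The Drd1 start holds 23 CpG and had a peak in 13 libraries. Map2, a dendritic microtubule protein, has 37 CpG, and Syn1, a synaptic vesicle protein, and Grin1, the obligatory NMDA receptor subunit, have 33 each, yet no region lay within 1 kb of any of these 3 starts. Drd2, with 23 CpG like Drd1, had none either.

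Of the 36 starts, 8 (22.2%) had a region within 1 kb and 1 (2.78%) was open in all 23 libraries. Among 21262 starts of protein-coding genes, 54.3% had a region and 43.5% were open in all. The median CpG count was 13.5 in the members and 13 in all starts. With at least as many CpG as the members' median, 27.8% of 18 member starts had a region, against 85.8% of 10397 starts of all genes. For starts with 20 to 29 CpG the count was 2 of 7 members against 87.9% of all genes, and for 30 to 39 CpG it was 0 of 3 against 89.0%. The other starts with a region were the outermost Foxp1 start (13 CpG, 9 libraries), Slc17a7 (13 CpG, 5 libraries), Syp (18 CpG, 5 libraries), Pde10a (23 CpG, 4 libraries) and an inner Drd1 start with 6 CpG beside the outer one. No start was on hand for Adora2a, Camk2a, Celf4, Foxp2, Gria1, Grin2a, Grin2b, Penk, Ppp1r1b and Snap25. Among them Adora2a, Celf4 and Ppp1r1b had a region at an own end, for Ppp1r1b in all 23 libraries, so the members' shares leave these out.

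**Figure D1:**
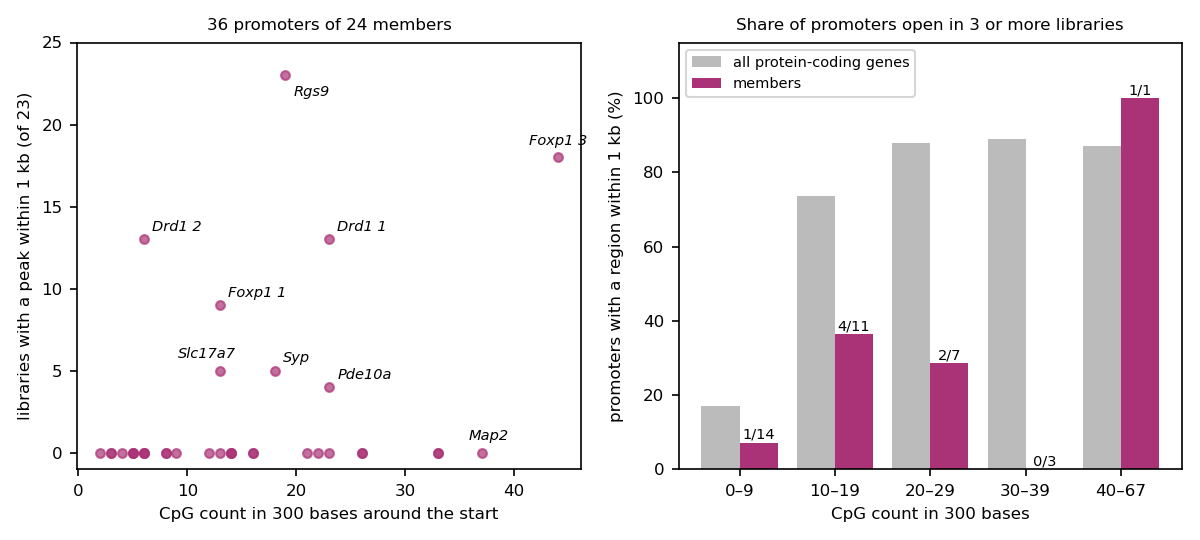
CpG count in the 300 bases around each RefSeq start of the members against the number of libraries with a peak within 1 kb (left, 1 point per start), and the share of starts with a region by CpG count for members and for all protein-coding genes (right, numbers give members with a region of members in the class). Among these starts Rgs9 stands alone at 23 libraries, and from 10 to 39 CpG the members' bars are lower than those of all genes.

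Short motifs were searched in the same 300 bases on both strands, as letters only. GAGGAA, the core bound by the myeloid factor PU.1, was in 33.3% of member starts and 27.4% of all starts. GGGCGG (SP) was in 55.6% and 46.2%, TGCGCA (NRF1) in 13.9% and 9.74%, and CCAAT (NFY) in 27.8% and 38.2%. TGANTCA (AP-1) was in 2.78% and 6.99%, and TGACGTCA (CRE) in 2.78% and 2.23%.

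Most of the loci were closed. Of the 34 members, 20 had no region (58.8%, against 27.8% of all 21883 protein-coding genes), and these 20 held 142 of the 2161 peaks. Only Slc17a6, the vesicular glutamate transporter of subcortical neurons, had no peak in any library. A region at either gene end, within 1 kb, was found for 8 members (23.5%, against 53.5% of all genes), and an end open in all 23 libraries for 2 (5.88%, against 42.1%). The 2 were Rgs9, and Ppp1r1b at an end shared with Stard3 (median rank 63.5). Another 50 neuronal genes held 19 with no region, 15 with an open end and 8 with an end open in all libraries. In these sorted cells a peak cannot tell a few widely open cells from many partly open ones.

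Among the transmitter genes, Penk and Gad1 had 1 peak each over all libraries, Tac1 and Gad2 had 3 each and Drd2 had 4. Penk and Tac1 encode the opioid and tachykinin peptides of spiny neurons, and Gad1 and Gad2 the enzymes that make GABA. The best-ranked of these peaks was that of Gad1 in 1 MIA_LPS library, at a percentile rank of 20.2 (100 is the highest −log10 p in a library). Of the glutamate receptor genes, Gria1 had 1 peak, Gria2 had 2, Grin2a had 4 and Grin2b had 10. The vesicle fusion gene Snap25 had 8 peaks in 7 libraries, 7 of them at a gene end, and the calcium sensor gene Syt1 had 15 peaks in 9 libraries. The adhesion genes Nrxn3, Nlgn1 and Cntnap2 had 8, 9 and 21 peaks. Bcl11b and Map2 had 10 each, Foxp2 had 11, Meis2 had 16 and the potassium channel gene Kcnd2 had 5. The peaks of these genes were sparse and ranked low: no gene of the 20 reached more than 13 libraries (Cntnap2), and the highest rank of any was 49.7, for Meis2.

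Long members were mostly closed. Of the 16 members over 100 kb, 12 had no region (75.0%, against 23.4% of 2428 such genes), and of the 18 shorter members 8 had none (44.4%, against 28.3%). The other neuronal genes were less often closed at this length: of 19 over 100 kb, 7 had none (36.8%). Of their 31 shorter genes 12 had none (38.7%). Cntnap2 spans 2241 kb, Nrxn3 1612 kb and Nlgn1 911 kb without a region. The median number of regions per 100 kb of locus was 0 for members, 0.999 for the other neuronal genes and 3.45 for all genes.

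The 4 long members with a region were Foxp1, Celf4, Pde10a and Rbfox3, and Foxp1 held the most. This forkhead factor of spiny neurons is also expressed in blood lineages, and its 597 kb held 524 peaks (24.3% of the members') and 28 regions (28.6%). The other 13 members with a region held between 3 and 10 each. Of the 28, 3 were open in all 23 libraries, and the best of them by rank, chr6:99485098-99485598 in the body, had a median of 56.3. The Foxp1 end at chr6:99522697-99523197 was open in 21 libraries.

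**Figure D2:**
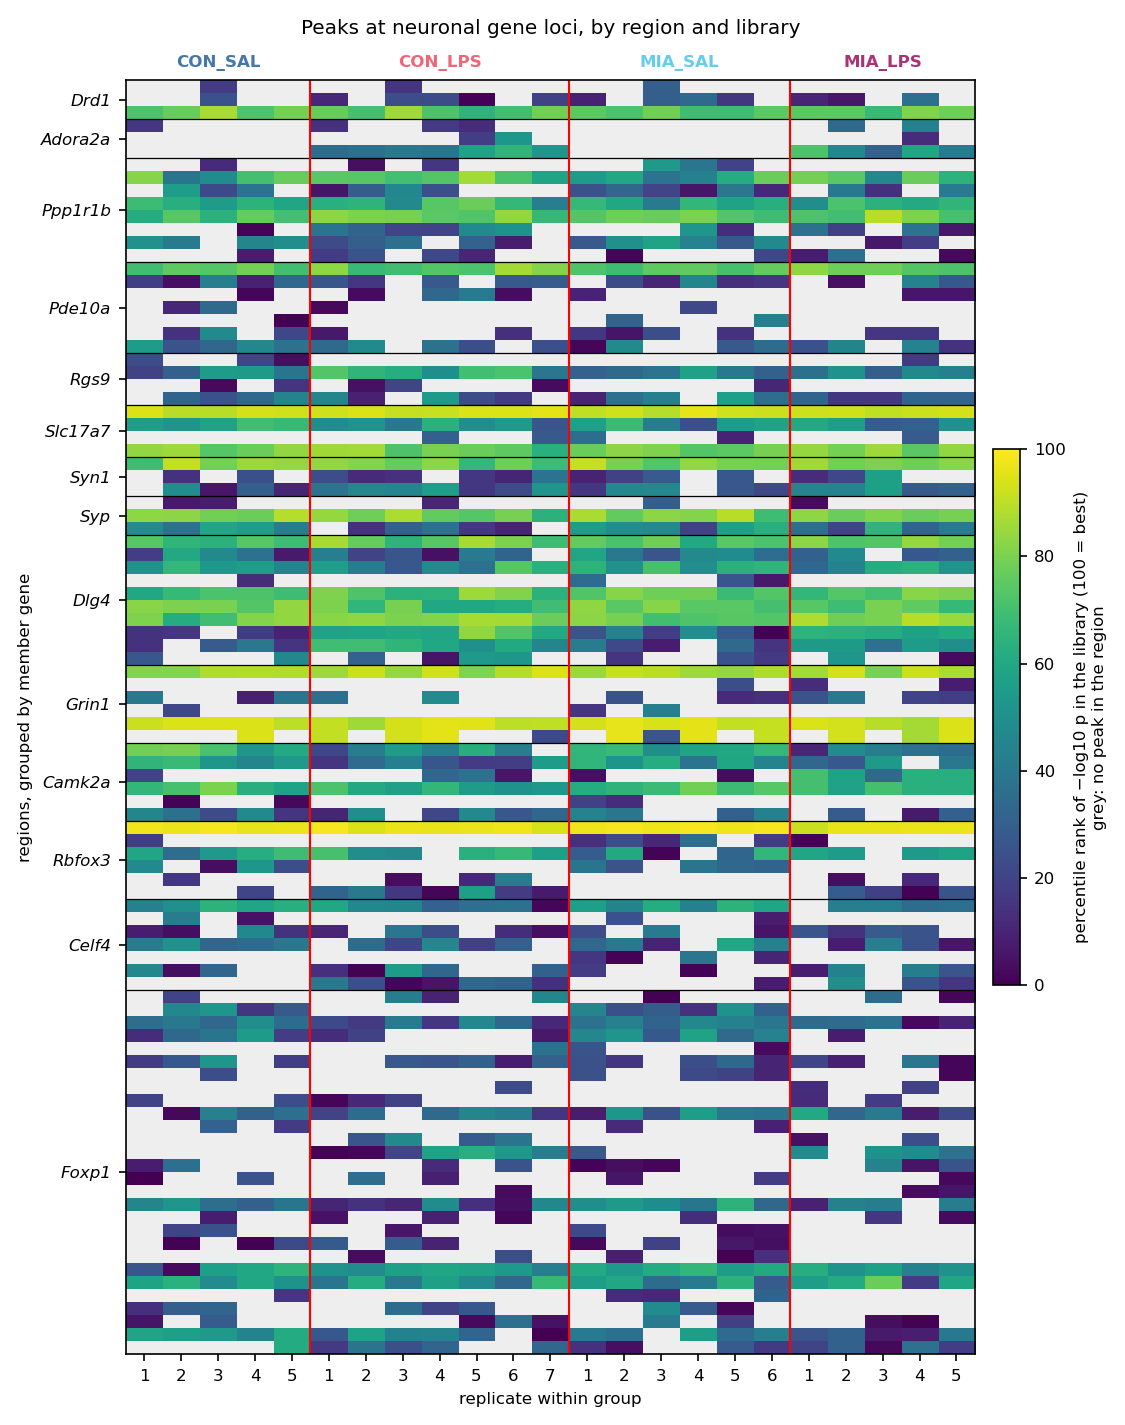
Percentile rank of −log10 p in every library (columns, by group) for the 98 regions (rows, along the chromosome within each gene, genes by role), grey where a library had no peak. Rows that are bright across all 23 libraries, such as the top row of Rbfox3 or of Slc17a7, lie beside many rows, above all in Foxp1, with peaks in only some libraries.

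The regions that were open throughout lay mostly away from the members' own ends. Of the 98 regions, 23 (23.5%) were open in all libraries, against 33.8% of all regions of the series. At the end of another gene 8 of 14 were open in all, with a median of 23 libraries and a median rank of 73.7. At the members' own ends 2 of 13 were, with a median of 13 libraries and a rank of 24.4. In the bodies of genes over 100 kb it was 3 of 38, with a median of 8.5 libraries and a rank of 20.2. In shorter bodies it was 4 of 14, and in the 20 kb flanks 6 of 19. Of the 23 regions open in all libraries, 12 lay at or in another protein-coding gene.

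**Figure D3:**
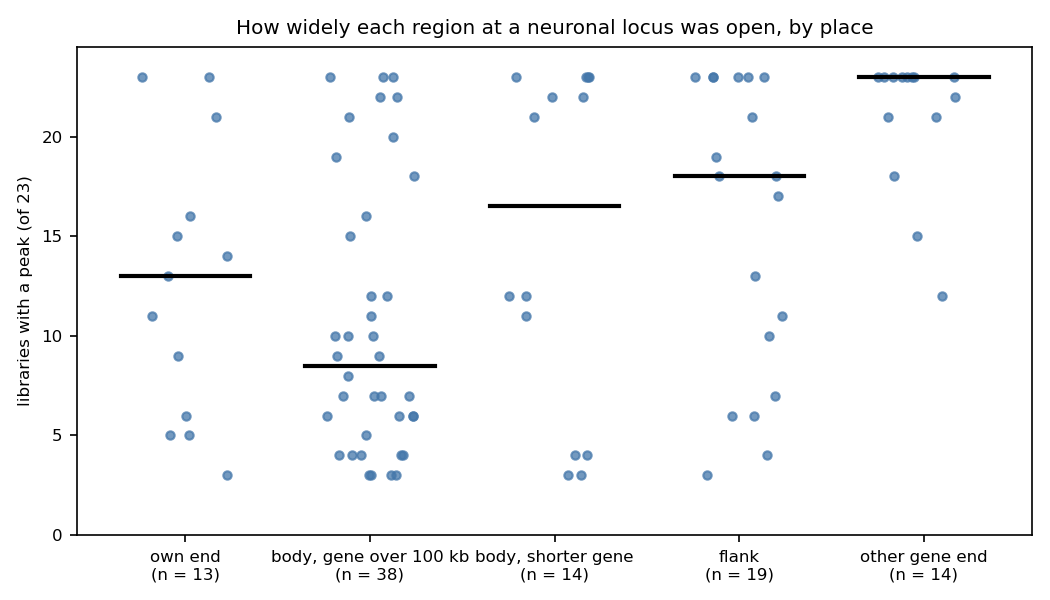
Number of libraries with a peak for each of the 98 regions by place, with a line at the median. Regions at the ends of other genes are at or near 23 libraries, and those in the bodies of genes over 100 kb spread from 3 to 23 with a median of 8.5.

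For Rbfox3, the highest rank belonged to a neighbour. Its region at chr11:118476669-118477169 lies at the end of Engase, 12.8 kb from Rbfox3, and its rank was 96.2 to 98.6 in CON_SAL, 97.3 to 99.1 in MIA_SAL, 93.9 to 98.6 in CON_LPS and 91.9 to 97.0 in MIA_LPS. The best region in the Rbfox3 body, chr11:118490745-118491245, was open in 20 libraries at a median rank of 57.2. Grin1 had 2 neighbouring ends open in all libraries, at Ssna1 with Anapc2 (median rank 87.8) and at Man1b1 (93.4), while its best body region was open in 12. For Slc17a7, the cortical vesicular glutamate transporter, Aldh16a1 (92.6) and Pth2 (79.6) ends were open in all libraries, and its own end in 5. The Drd1 locus was open in all libraries at Sfxn1 (74.7) and in 13 at its own end. The Syn1 locus was open in all libraries in the neighbour Araf (79.6) and in 21 at the end of Cfp, the complement factor properdin. The gene ends of Dlg4 had no peak in any library, and the ends of Acadvl (72.6) and of Dvl2 with Phf23 (53.4) at its locus were open in all.

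A few body and flank regions without another gene were as widely open. Syp, a vesicle membrane protein, had a body region at chrX:7648673-7649173 with ranks of 77.7 to 88.9 in CON_SAL and 64.2 to 89.4 in the other groups. Dlg4 had 2 body regions open in all libraries, of which chr11:70021390-70021890 had the higher median rank, 80.8. Camk2a, the kinase of the postsynaptic density, had 1 at chr18:60978248-60978748 with a median rank of 64.9. Its gene end carried 1 peak in 1 library. Pde10a, a striatal phosphodiesterase, had 1 region open in all libraries 18.9 kb outside the gene, at a median rank of 73.5. The best body regions of Pde10a and Rgs9 were open in 11 and in 4 libraries. Celf4 had none: its best body region was open in 22 libraries and its best end in 14. Ppp1r1b, which encodes DARPP-32, had a region at its own end alone in 16 libraries, with a median rank of 27.1. The best end and body regions of Adora2a were open in 6 and in 12 libraries.

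The limit of 20 kb set which neighbouring regions were counted. The outermost inside were a region 19913 bases from Ppp1r1b, with Neurod2 as the nearest gene and open in 6 libraries, and a region near Phf23, 19906 bases from Dlg4 and open in all 23. Just outside lay regions 20613 bases from Dlg4 (3 libraries), 20660 bases from Syp, near Magix (11 libraries), and 21509 bases from Dlg4, near Phf23 (all 23).

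Marker lists of cell types gave the frame for these counts. Of 14 microglial genes 13 had a region at an end and 6 had an end open in all libraries, and none lacked a region at its locus. The end of Gpr34 had none. Of 10 housekeeping genes 9 were open at an end in every library. Astrocyte genes were open at an end in 4 of 10. These were Aldoc (23 libraries), Slc1a3 (22), Slc1a2 (3) and Aldh1l1 (3), with no end region for Aqp4, Gfap, Gja1, Gjb6, S100b and Sox9. Oligodendrocyte-lineage genes were open in 3 of 10 (Mbp and Cnp in 23 libraries, Mog in 7), with none at Olig1 or Olig2. Endothelial genes were open in 3 of 10 (Kdr in 23 libraries, Flt1 in 19, Pecam1 in 5), with none at Cldn5 or Tek. Per library, between 3 and 9 members, 8 and 13 microglial genes, 1 and 4 astrocyte genes, 2 and 3 oligodendrocyte genes and 1 and 3 endothelial genes had an open end. The part of other cells in the members' peaks was not tested.

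In lists of equal length, each holding its best 33949 peaks, the number of peaks at the loci was close in all groups. The loci of saline animals had 61.8 ± 6.46 peaks per library in CON_SAL (SD, n = 5) and 66.8 ± 3.87 in MIA_SAL (n = 6). After LPS they had 63.7 ± 4.96 in CON_LPS (n = 7) and 59.8 ± 3.56 in MIA_LPS (n = 5). The CON_SAL libraries held 57, 66, 71, 59 and 56, and the MIA_LPS libraries 57, 59, 58, 66 and 59. The lowest, median and highest were 59, 62 and 71 in CON_LPS, and 62, 66.5 and 73 in MIA_SAL. All groups overlapped. In the bodies of members over 100 kb, libraries held 17 to 25 peaks in CON_SAL, 16 to 25 in CON_LPS, 20 to 25 in MIA_SAL and 14 to 19 in MIA_LPS. No such count was made for all genes over 100 kb, so whether the lower MIA_LPS counts are particular to neuronal loci was not tested. Shortening removed more peaks on average from MIA_LPS lists (mean 51340 deposited) than from MIA_SAL lists (46780). The part of the shortening in these counts was not tested. A score over the members was not tested either. With all deposited peaks, the rate per 1000 peaks was 2.02 ± 0.227 in CON_SAL and 2.14 ± 0.156 in MIA_SAL, and 2.01 ± 0.137 in CON_LPS and 1.97 ± 0.177 in MIA_LPS.

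In lists of equal length, libraries from fewer sorted cells had more peaks at the members' own ends. The 13 libraries from fewer than 20000 cells had 9.31 ± 1.65 such peaks (SD), and the 10 libraries from more had 6.20 ± 2.25. Peaks at the ends of other genes were close, at 12.5 ± 0.967 and 12.6 ± 0.699. The libraries from fewer cells also had more open ends among the other neuronal genes, 11.5 ± 1.85 against 9.70 ± 1.06. Among the microglial genes they had 10.9 ± 0.954 open ends, against 11.5 ± 1.43. They had fewer deposited peaks, 41790 ± 6167 against 51090 ± 10390, so bringing lists to equal length removed fewer peaks from them on average. The part of this in the values at own ends was not tested. With all deposited peaks the classes overlapped widely. Then 5 to 14 members had an own-end peak in the libraries from fewer cells, and 5 to 15 in the others. Libraries held 10560 to 25000 cells and 33949 to 68312 deposited peaks, and the read depth is unknown. Both classes were found in every group, and the part of the cell number in the group values was not tested.

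**Figure D4:**
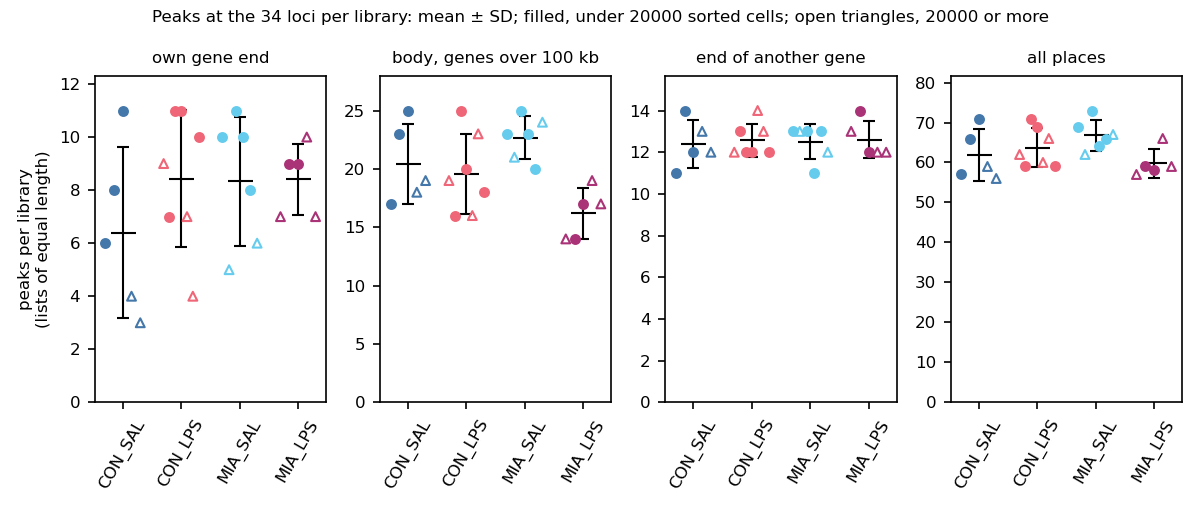
Peaks per library at the 34 loci in lists of equal length, by place and group, with mean ± SD, filled circles for libraries of fewer than 20000 sorted cells and open triangles for the others. At own ends the triangles mostly sit low. In the bodies of members over 100 kb the ranges are 17 to 25 in CON_SAL, 16 to 25 in CON_LPS, 20 to 25 in MIA_SAL and 14 to 19 in MIA_LPS. No count over all genes of this length was made.

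LPS changed 7 regions at 4 loci. Over both offspring groups 39 member regions could be tested with the exact conditional test, and 7 were called at a Benjamini-Hochberg adjusted p under 0.05 (17.9%), against 23.7% of all 17547 regions tested. Of these, 4 were open in more LPS libraries (15.3% of all tested were) and 3 in more saline libraries (8.39%). At an unadjusted p under 0.05 there were 13 of the 98. The median difference in the share of libraries with a peak, LPS minus saline, was 10.7 percentage points over the 39 regions and -1.19 over all tested. Over all 98 member regions it was 0, as over all regions of the series, and these medians were not compared by a test. The calls lay in Adora2a (1), Celf4 (1), Foxp1 (3) and Rbfox3 (2). Of 6 called regions at the 50 other neuronal genes, of 50 tested, 3 were open in more LPS libraries.

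The Adora2a body, coding for an adenosine receptor of striatal spiny neurons, had the widest difference. The region chr10:75326456-75326956 (Adora2a 3; regions are numbered along the chromosome) had no peak in any of 11 saline libraries. Its ranks were 35.5, 39.6 and 65.3 (lowest, median, highest) in CON_LPS, and 72.0, 46.3, 31.4, 59.4 and 41.6 in MIA_LPS. All 12 LPS libraries were above all saline libraries (100 percentage points, exact test, adjusted p = 1.75e-04). The authors' fold enrichment at the peak was 4.58 to 6.66 in CON_LPS and 4.52 to 9.05 in MIA_LPS. With all deposited peaks, 3 saline libraries also had one.

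Foxp1 changed in both directions along its body. Foxp1 13, chr6:99188341-99188841, lies 263 kb inside the gene. It had no peak in CON_SAL, ranks of 0.6, 42.2 and 63.2 (lowest, median, highest) in CON_LPS, a single MIA_SAL library at 28.0, and 48.3, 0, 50.8, 48.8 and 37.6 in MIA_LPS. LPS libraries were mostly higher with an overlap at the low end (81.7 points, exact test, adjusted p = 0.00252). Foxp1 2, chr6:98993149-98993649, had no peak in any LPS library. Its saline ranks were 0, 46.8, 52.6, 15.3 and 28.1 in CON_SAL, and 14.3, 30.3 and 51.3 (lowest, median, highest) in MIA_SAL. Of 11 saline libraries 10 had a peak (-90.0 points, exact test, adjusted p = 5.58e-04).

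Foxp1 4, chr6:99007392-99007892, also fell. Its ranks were 12.6, 33.6, 38.8, 55.2 and 18.3 in CON_SAL, and 27.4, 45.4 and 57.8 in MIA_SAL (lowest, median, highest). After LPS they were 0, 0 and 19.9 in CON_LPS, and 0, 7.9, 0, 0 and 0 in MIA_LPS. The MIA groups did not overlap, and the CON groups did (-68.6 points, exact test, adjusted p = 0.0119). With peaks under a −log10 q of 5 left out, the call was lost (-37.4 points, adjusted p = 0.349). With all deposited peaks, or with lists shortened by fold, 4 CON_LPS and 3 MIA_LPS libraries had a peak (-41.4 points), and the region was open in too many libraries to reach the p needed for testing. Among the 7 regions, Foxp1 4 was the only one that could not be tested with those lists.

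Rbfox3 had a pair of body regions that moved in opposite directions. Rbfox3 4, chr11:118502184-118502684, had ranks of 47.6, 0, 3.6, 52.6 and 24 in CON_SAL and of 0, 32.8 and 38.9 (lowest, median, highest) in MIA_SAL, and no peak in any LPS library (-81.7 points, exact test, adjusted p = 0.00199). With all deposited peaks, 4 LPS libraries had one and the call was lost (-47.4 points, adjusted p = 0.177). Rbfox3 6, chr11:118739894-118740394, had 1 saline library with a peak (CON_SAL, 20.9), ranks of 1.9, 17.7 and 56.9 in CON_LPS, and 0, 29.2, 18.8, 0.7 and 26.0 in MIA_LPS (80.0 points, exact test, adjusted p = 0.00225). LPS libraries were mostly higher, and their ranks overlapped the saline library. The call was lost in lists shortened by fold (54.5 points, adjusted p = 0.0668) and without peaks under a −log10 q of 5 (46.2 points, adjusted p = 0.208).

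Celf4, a splicing regulator of excitatory neurons, changed 1000 bases from a gene end. Celf4 7, chr18:25755270-25755770, had no peak in CON_SAL, 1 MIA_SAL library at 7.5, ranks of 1.9, 24.2 and 39.7 in CON_LPS (lowest, median, highest), and 0, 49.3, 0, 25.5 and 15.7 in MIA_LPS. The CON groups did not overlap, and the MIA groups did (71.7 points, exact test, adjusted p = 0.00807). With every deposited peak kept the call was lost (53.3 points, adjusted p = 0.0855), as it was without peaks under a −log10 q of 5 (56.2 points, adjusted p = 0.0958). Celf4 6, the region at the end itself and 739 bases away, was open in 5 of 11 saline and 9 of 12 LPS libraries (exact test, adjusted p = 0.424).

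**Figure D5:**
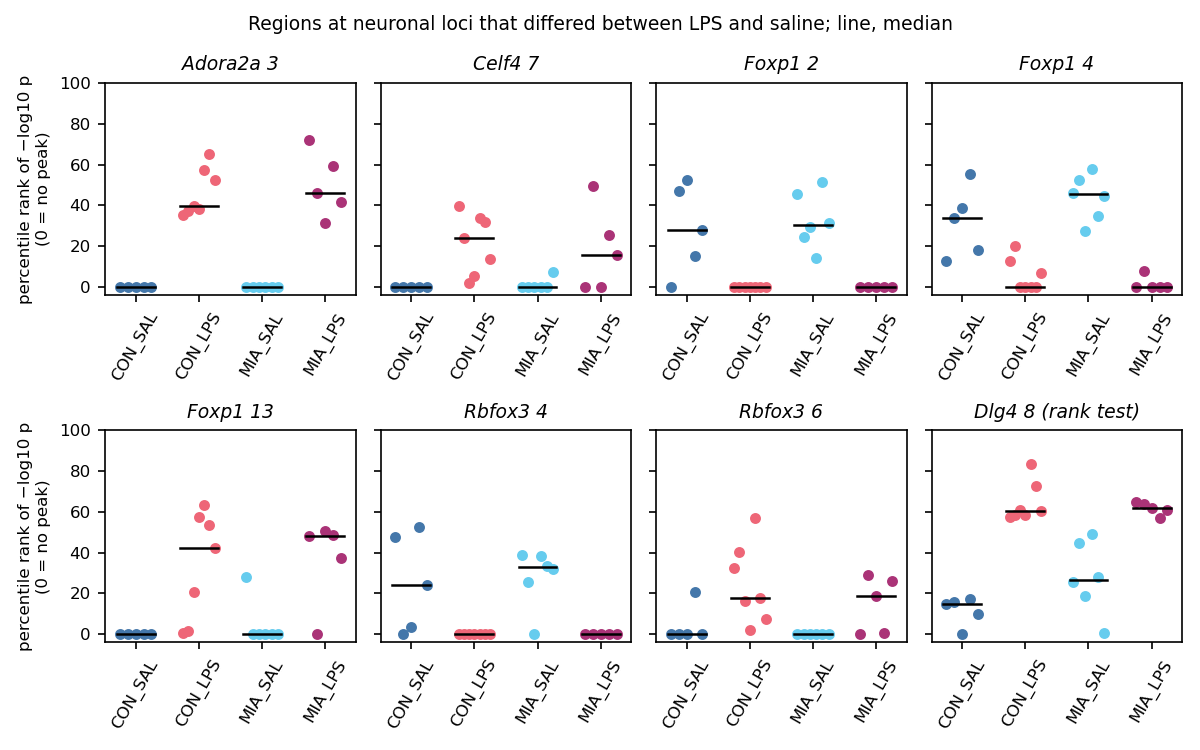
Percentile rank of −log10 p by library for the 7 regions called between LPS and saline and for Dlg4 8, whose rank differed by limma, with 0 for no peak and a line at the median. Adora2a 3 has peaks in all 12 LPS and in none of the saline libraries, and Foxp1 2 and Rbfox3 4 in none of the LPS libraries.

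Presence misses changes of rank where a peak is always found. By limma on the ranks, the test used for the interaction and here an alternative, 20 of the 98 regions were called between LPS and saline (20% of all 49124 regions were), 9 higher in LPS (10.5%) and 11 higher in saline (9.48%). The 7 regions above were among them. A pair of Dlg4 body regions, singled out after their values were seen, had the highest positive differences after Adora2a 3. Dlg4 8, chr11:70029082-70029582, ranked 14.7, 16.0, 0, 17.3 and 10.0 in CON_SAL and 0.7, 26.7 and 48.9 in MIA_SAL (lowest, median, highest). It ranked 57.7, 60.6 and 83.4 in CON_LPS, and 64.6, 63.7, 62.0, 57.1 and 61.0 in MIA_LPS. Every LPS library was above every saline library (43.5 points of rank, SE 4.57, limma adjusted p = 3.59e-07). Dlg4 9, chr11:70038057-70038557, rose by 35.2 points of rank (SE 5.07, adjusted p = 2.48e-05), with 1 MIA_LPS library at 37.8 inside the range of the saline libraries, whose highest was 42.2. The authors' fold overlapped for both regions, for Dlg4 8 with 0 to 9.43 in saline and 4.43 to 9.76 in LPS libraries.

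Within each offspring group the tests had fewer libraries. In CON offspring 3 of 13 tested member regions were called by Fisher's exact test, against 12.4% of 5271 tested. All 3 were open in more LPS libraries (9.92% of all tested were, and 2.52% in more saline libraries): Adora2a 3, Celf4 7 and Foxp1 13, each with 0 of 5 saline and 7 of 7 LPS libraries (adjusted p = 0.0101). In MIA offspring 2 of 12 were called, against 15.4% of 5794 tested. Adora2a 3 was open in 0 of 6 saline and 5 of 5 LPS libraries and Foxp1 2 in 6 of 6 and 0 of 5 (Fisher's exact test, adjusted p = 0.0140 for both). Among all regions tested in MIA offspring, 13.0% were open in more LPS libraries and 2.49% in more saline libraries. Libraries of the MIA_LPS group lacked the Foxp1 13 peak in 1 of 5 and the Celf4 7 peak in 2 of 5, and neither region was called in MIA offspring. With peaks under a −log10 q of 5 left out, or with every region tested whatever p it could reach, 0 member regions were called in CON offspring and 0 in MIA offspring.

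The LPS difference itself was compared between offspring groups by the interaction of limma on ranks. None of the 98 member regions was called, with 4 at an unadjusted p under 0.05 and a lowest adjusted p of 0.497, against 0.00204% of all 49124 regions. The interaction, MIA minus CON, was 3.62 points of rank for Adora2a 3 (SE 8.11), -4.65 for Celf4 7 (SE 10.3), -1.78 for Foxp1 13 (SE 15.2) and -4.16 for Foxp1 2 (SE 9.99). For each of these 4 the difference was smaller than its standard error. It was larger than its standard error for Foxp1 4 (-16.2, SE 8.87) and Dlg4 8 (-19.0, SE 9.14), neither of them called. The lowest adjusted p was that of Camk2a 3, at 49.5 points (SE 9.98). Its MIA_LPS ranks came mostly from the joined peak described below. The LPS calls at Celf4 7 and Foxp1 13 in CON offspring alone were thus not shown to differ from MIA offspring.

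No member region was called between MIA and CON offspring by presence. After saline, 12 member regions could be tested between MIA and CON offspring and none was called, with none of the 98 at an unadjusted p under 0.05 (lowest p = 0.0606, Fisher's exact test), and 0.0% of 4574 regions were called. After LPS, none of 11 was called and none of the 98 had an unadjusted p under 0.05 (lowest p = 0.0808, Fisher's exact test), and 0.0% of 4223 were called. By limma on ranks 0 of 98 were called after saline with 7 at an unadjusted p under 0.05 (0.0% of all regions), and 1 after LPS with 4 (0.0448% of all).

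The region that passed by rank after LPS was Camk2a 3, chr18:60977641-60978141, in the body of Camk2a. It ranked 70.4, 57.6, 34.7, 63.3 and 63.1 in MIA_LPS, and 33.6, 37.8 and 6.2 in 3 CON_LPS libraries with no peak in the other 4 (46.7 points of rank, SE 6.94, limma adjusted p = 0.00967). In saline, 1 CON library (20.3) and 2 MIA libraries (4.2 and 3.5) had a peak. The region lies 106 bases from Camk2a 4, which was open in all 23 libraries. In 4 of the 5 MIA_LPS libraries and in none of the other groups, a single wide peak covered both regions and gave both ranks. The value of Camk2a 3 in those libraries is thus that of the joined peak. When a peak counted only where its summit lay inside the region, the difference was -4.14 points (SE 6.80, limma adjusted p = 1.0) and the call was lost. It was also lost with lists of 16974 peaks (21.8 points, limma adjusted p = 0.141) and with the replicate number as a block (44.1 points, adjusted p = 0.0675). Leaving out each library in turn gave adjusted p-values of 7.21e-04 to 0.0425 by limma. The region was open in 5 of 5 MIA_LPS and 3 of 7 CON_LPS libraries, too many in all for Fisher's exact test to reach the p needed for testing.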

How the data were processed

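Peak lists of 23 ATAC-seq libraries, called per sample, were used. The submitters' processing notes name the builds mm10 and GRCm38 and, with no version, the tools MACS2, Bowtie2, cutadapt, SAMtools, Picard and DiffBind. Settings and read numbers are not given there. The files have no header. By their values, column 7 of the lists the authors deposited is a fold enrichment at the summit (a ratio), and columns 8 and 9 are the −log10 of p and of q for a peak. The score that the authors deposited in column 5 played no role. Columns 7 and 8 are the authors' own values and served only to rank and describe peaks within a list.

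Lists were shortened to their best 33949 peaks by −log10 p. Windows of 250 bases to either side of a summit, overlaps removed, were kept with a peak in 3 or more libraries (49124 of 74287). A library had a peak where one covered 50% of the region or lay with 50% of its length inside it. Gene positions and promoters came from RefSeq tables of GRCm38.p6. LPS over both offspring groups was tested with an exact conditional test stratified by prenatal group, and single contrasts with Fisher's exact test. All were two-sided, over regions that could reach p of 0.01, with Benjamini-Hochberg adjustment over all of them. The interaction used limma 3.58.1 (R 4.3.3) on percentile ranks, 0 for no peak. The tests were checked on simulated data. Python 3.11.15, numpy 2.4.6, pandas 2.3.3 and scipy 1.17.1 were used.

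The members and lists were chosen with earlier results of these data known. Named were each called region, each member's end and body region open in the most libraries, and members with no peak. Alternatives changed list length, threshold, ranking, overlap, test, distance, block and libraries. Region sequences were not analysed here.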

Additional observations from a re-analysis of the deposited data

Results flagged for a closer look

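In 7 of 31 groups of 4 to 10 libraries that were examined for a library apart, one stood off from the rest by Dixon's criterion at 95%. Most groups held ranks of the called regions, with 0 for no peak. A group in which a single library has a peak always meets the criterion. The usual rate of about 1 in 20 groups by chance thus does not apply, and the count of flags carries no weight. Most were the single library of a group with or without a peak. In CON_SAL a single library had a peak at Rbfox3 6, at a rank of 20.9. In MIA_SAL a single library had a peak at Celf4 7 (rank 7.5) and a single one at Foxp1 13 (rank 28.0), and a single one lacked the peak at Rbfox3 4 (0.0). In MIA_LPS a single library had a peak at Foxp1 4 (rank 7.9) and a single one lacked the peak at Foxp1 13 (0.0). Of the peaks per library at the neuronal loci in lists of equal length, 1 MIA_LPS library held 66, above the other 4 with 57 to 59.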

How the results depend on the processing

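Over both offspring groups the 7 LPS calls became 4 with lists of 16974 peaks and 20 with limma on ranks, and leaving out each library in turn gave 7 to 9. In CON offspring the 3 calls became 1 with lists of 16974 peaks, 0 with a −log10 q of at least 5, 0 with no filter on the attainable p and 13 with limma (3 to 4 leaving out each library). In MIA offspring the 2 calls became 1 with all deposited peaks, 1 with lists of 16974 peaks, 0 with a −log10 q of at least 5, 0 with no filter and 9 with limma (2 to 3 leaving out each library). Between MIA and CON offspring after LPS, limma gave 1 call in place of 0; after saline, and for the interaction, every alternative gave 0. The cause of these changes was not tested. With lists of 16974 peaks none of the 7 named regions could be tested, so the 4 calls there were other regions. Where tested, none of the 7 changed direction, and leaving out any single library ended none of the calls. For libraries with the same replicate number, the correlation of deviations was 0.0258 on average over 31 pairs (-0.180 to 0.185). For other numbers it was -0.00457 over 166 pairs (-0.229 to 0.234). Whether the replicate number pairs libraries was not tested. With the replicate number as a block, limma gave 21 calls over both groups, 11 in CON, 11 in MIA, and 0 for both MIA contrasts and the interaction (lowest adjusted p after LPS 0.0675, for Camk2a 3). With the middle number of the identity code as a random block, chosen after seeing the data (estimated correlation 0.132), limma gave 19 calls over both groups, 11 in CON, 10 in MIA, 0 between MIA and CON after saline, 1 after LPS (Camk2a 3, adjusted p = 0.00786) and 0 for the interaction, and the 7 named regions passed. Peaks per library at the loci, in the order CON_SAL, CON_LPS, MIA_SAL and MIA_LPS, were 89.0, 85.3, 100.8 and 102.8 with all deposited peaks, 26.6, 24.7, 25.2 and 23.8 with lists of 16974 peaks, and 33.8, 33.3, 36 and 29.2 in gene bodies alone. With a −log10 q of at least 5, where lists were not of equal length, they were 56.7 in CON_LPS, 71.8 in MIA_SAL and 77.8 in MIA_LPS. MIA_LPS, lowest in lists of equal length, was the highest of these, and the CON_SAL value for this setting is not given here. Without the 6 libraries numbered 01 to 03 in the labels, no region could reach the p needed for testing LPS in MIA offspring or MIA against CON after saline. The unknown read depth limits all counts of absent peaks.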
